A study of Mus musculus and Homo sapiens with 9 samples.

Results

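The regions described here were 513 FLAG-MCM8 peaks of HEK293 cells that overlapped an S9.6 peak by at least 1 bp but overlapped neither an RNH1-labelled peak (S9.6 signal in cells given RNase H1) nor a peak of the IgG library. They were defined by these peak calls alone, and made up 3.86% of the 13295 FLAG-MCM8 peaks on chromosomes 1 to 22, X and Y (hg38). HEK293 is a human embryonic kidney cell line, and all its libraries carry the wildtype genotype in their labels. The FLAG-MCM8 library came from cells given a FLAG-MCM8 plasmid and was made with anti-FLAG antibody, so it maps a tagged protein made in excess. The S9.6 library was made with the S9.6 antibody, and its label names no transfection. The RNH1-labelled library came from cells given a plasmid for RNH1 (RNase H1 in the study) and was also made with S9.6, and mouse IgG served as control. The series also holds 5 libraries from mouse embryonic fibroblasts (MEFs): S9.6 in Mcm8 wild-type, Mcm8 knockout, control shRNA and Ddx5 knockdown cells, and 1 library of wild-type cells with no primary antibody. Each group had 1 library, so there are no replicates, no p-value is given, and a 95% interval covers only counting error over regions.

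An R-loop forms when a transcript pairs again with its template strand of DNA and leaves the other strand single. R-loops are found above all at active promoters rich in G and C, and when they persist they can stall replication forks. RNase H1 cuts the RNA of such a hybrid, and helicases such as DDX5 and DHX9 unwind it. MCM8 is a relative of the replicative MCM helicase and acts with MCM9 in homologous recombination. In CUT&Tag an antibody brings a transposase to its target, and the tagged DNA around it is sequenced. The comparison asks which MCM8-bound hybrids were no longer called once RNase H1 had been supplied.

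The 4 HEK293 lists held between 12497 and 17178 peaks, and their depths, recovered from the peak values, were 0.80 (FLAG-MCM8), 1.06 (RNH1-labelled) and 1.05 (IgG) times that of S9.6. A peak needed at least 10 fragments at its summit to be called in the FLAG-MCM8 list, 11 in S9.6 and 12 in the RNH1-labelled list. The S9.6 and RNH1-labelled lists both held a peak on coding exons of MCM8 (chr20:5967426-5968037) whose ends equal those of a FLAG-MCM8 peak of fold 21.6. A plasmid with the MCM8 coding sequence carries these exons too, and the part of the plasmid in these peaks was not tested. None of the 513 regions lay in the MCM8 gene. Peaks hold no transcript levels, so neither the identity of the cells nor the level of RNase H1 could be checked.

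Some promoter regions serve here as examples of the 241 members at promoters, while 272 members lay elsewhere. They are printed from the hg38 reference as stretches free of annotated exons inside the FLAG-MCM8 peak, in the direction of the named gene. The first 5 had the highest −log10 q in the FLAG-MCM8 list among promoter regions with such a stretch of over 100 bases, the next 2 had the highest −log10 q in the S9.6 list, and FBXO4 is a locus the study examined. Capitals mark the GC box GGGCGG and the CCAAT box on either strand.
ARRB2, chr17:4710314-4710493, plus strand: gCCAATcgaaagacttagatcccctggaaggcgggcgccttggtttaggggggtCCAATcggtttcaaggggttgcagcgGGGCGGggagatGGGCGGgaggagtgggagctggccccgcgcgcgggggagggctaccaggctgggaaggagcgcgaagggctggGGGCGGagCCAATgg
MTHFD2, chr2:74198743-74198922, plus strand: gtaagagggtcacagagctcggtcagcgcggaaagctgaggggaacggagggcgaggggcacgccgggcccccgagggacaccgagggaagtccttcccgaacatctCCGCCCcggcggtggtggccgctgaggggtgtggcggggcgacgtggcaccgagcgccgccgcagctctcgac
OPA3, chr19:45584455-45584622, minus strand: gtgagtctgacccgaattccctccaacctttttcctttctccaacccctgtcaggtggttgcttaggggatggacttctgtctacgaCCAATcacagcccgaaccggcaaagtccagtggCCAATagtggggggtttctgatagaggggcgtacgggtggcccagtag
SNX12, chrX:71068449-71068628, minus strand: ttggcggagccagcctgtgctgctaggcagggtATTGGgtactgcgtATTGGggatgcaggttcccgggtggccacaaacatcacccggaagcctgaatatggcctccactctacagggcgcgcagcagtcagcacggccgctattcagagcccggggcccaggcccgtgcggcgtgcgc
PER1, chr17:8156516-8156695, minus strand: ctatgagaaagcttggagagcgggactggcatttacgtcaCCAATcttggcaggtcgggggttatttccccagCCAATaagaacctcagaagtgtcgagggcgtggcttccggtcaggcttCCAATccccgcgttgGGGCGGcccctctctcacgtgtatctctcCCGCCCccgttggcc
FAM162A, chr3:122384326-122384505, plus strand: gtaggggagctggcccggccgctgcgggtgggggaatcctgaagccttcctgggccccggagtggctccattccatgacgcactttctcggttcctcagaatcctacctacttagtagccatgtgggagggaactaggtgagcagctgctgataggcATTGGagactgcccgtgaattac
ELL, chr19:18522299-18522478, minus strand: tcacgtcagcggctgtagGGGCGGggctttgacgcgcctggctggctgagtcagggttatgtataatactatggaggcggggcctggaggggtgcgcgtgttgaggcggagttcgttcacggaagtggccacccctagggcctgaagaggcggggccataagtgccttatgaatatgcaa
FBXO4, chr5:41925123-41925253, plus strand: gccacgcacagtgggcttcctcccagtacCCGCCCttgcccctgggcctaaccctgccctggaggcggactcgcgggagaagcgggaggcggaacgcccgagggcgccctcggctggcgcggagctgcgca
The stretches of MTHFD2, OPA3 and FAM162A lie in an intron downstream of the transcription start site (TSS), and the others lie upstream of it. The PER1 stretch holds 3 CCAAT boxes and 2 GC boxes in 180 bases, and OPA3 and SNX12 each hold 2 CCAAT boxes and no GC box. Over all promoter regions of the set, CCAAT occurred around the FLAG-MCM8 summit in 27.0%. The ARRB2 stretch lies beside the S9.6 peak and shares 0 bases with it.

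Of the 1483 FLAG-MCM8 peaks that met S9.6 but not IgG, the 513 regions were 34.6%, and the other 970 also had an RNH1-labelled peak (kept regions below). This share was fixed by the rule and is only a description. Counted over S9.6 peaks instead, 72.7% of all those without an IgG peak had no RNH1-labelled peak, with 33.9% of those under FLAG-MCM8 and 77.2% of the others, which is also a description. The opposite pattern, an RNH1-labelled peak under a FLAG-MCM8 peak with no S9.6 and no IgG peak, was found in 430 regions (reverse regions below). These were 30.7% (95% interval 28.4 to 33.2%) of the 1400 FLAG-MCM8 peaks with an RNH1-labelled peak and no IgG peak, beside 34.6% (32.2 to 37.1%) for the members. Members were thus 1.19 times as many as reverse regions. When the 12497 strongest peaks of every list were used, the order turned, with 439 members and 454 reverse regions. A hybrid removed by RNase H1 and a hybrid that 1 library called and another missed cannot be told apart with 1 library each.

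Member regions carried lower S9.6 peaks than kept regions. Their S9.6 summit held a median of 20 fragments (range 11 to 53), beside 31 in kept regions (range 13 to 202) and 19 over the whole S9.6 list. For 193 members (37.6%) the S9.6 summit held at most 18 fragments, which is 1.5 times the lowest RNH1-labelled pileup, beside 8.87% of kept regions. Reverse regions had an RNH1-labelled summit of 21 fragments at the median (12 to 54), a range that overlaps that of the members. FLAG-MCM8 summits differed less, with medians of 15 fragments in members (10 to 39), 17 in kept regions and 16 in reverse regions. The median fold over the local background was 4.83 (3.07 to 9.96) for the members' FLAG-MCM8 peaks and 4.39 (2.35 to 11.0) for their S9.6 peaks. Only 6 members had a q of 1e-10 or lower in both lists, at SPTY2D1, RRN3, PER1, OPA3, AKT1S1 and SNX12, a group named after its values were seen. Of these, AKT1S1 and RRN3 lay 41 and 92 bp from an RNH1-labelled peak, and OPA3 lay 275 bp from an IgG peak.

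**Figure D1:**
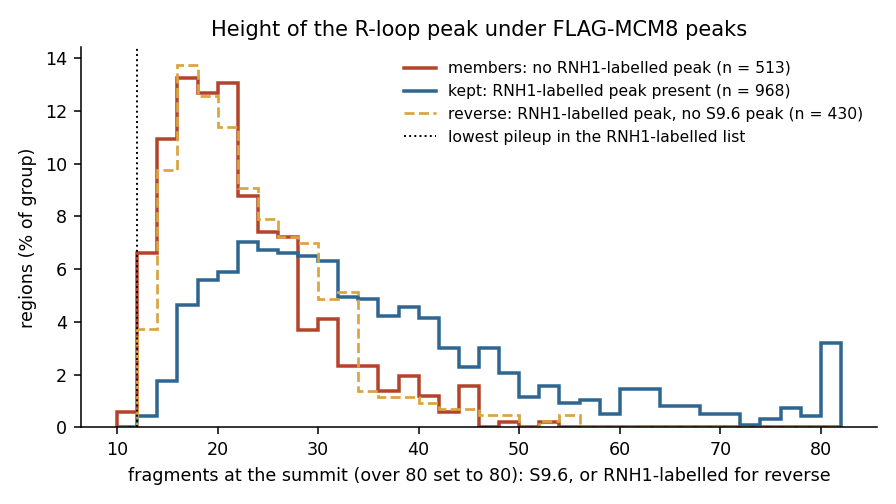
Height of the R-loop peak under FLAG-MCM8 peaks, as the share of each group (y axis, %) by the number of fragments at the summit (x axis, 2 fragments per step). Members have a median of 20 S9.6 fragments and kept regions 31, while reverse regions, drawn with their RNH1-labelled height, have a median of 21 and follow the members.

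The rule cut through neighbouring peaks in places. An RNH1-labelled peak lay within 1 kb of 55 members and within 200 bp of 35, and for 30 members the S9.6 peak itself reached an RNH1-labelled peak that the FLAG-MCM8 peak did not. At the other end, 366 members had none within 10 kb, and the median gap was 24230 bp. Members close to an RNH1-labelled peak included SSH1 (4 bp) and a coding exon of C16orf96 (6 bp). Just outside lay an intron of NEURL1-AS1 and the UVSSA promoter, each sharing 2 bp with an RNH1-labelled peak. The smallest overlap with an S9.6 peak was 2 bp, at an intergenic region of chromosome 17 and in an intron of GPSM1, while a peak at the CHD4 promoter missed an S9.6 peak by 1 bp. On the IgG side, the C16orf96 exon was 45 bp from an IgG peak and inside the rule, and a region near FBXL12P1 shared 7 bp with one and was outside.

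The share of S9.6 peaks with no RNH1-labelled peak was lower the stronger the S9.6 peak was, both with and without a FLAG-MCM8 peak. In the weakest 25% of the S9.6 list by −log10 p, 74.3% of S9.6 peaks under FLAG-MCM8 lacked an RNH1-labelled peak, beside 91.7% of those without FLAG-MCM8. In the strongest 25% the shares were 14.8% and 46.0%. In each of the 4 strength bins the share was lower under FLAG-MCM8, with a difference of −17.5 percentage points (95% interval −25.3 to −10.9) in the weakest bin and −31.1 points (−34.1 to −27.9) in the strongest. The rule used this contrast, so these shares and differences are only a description.

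**Figure D2:**
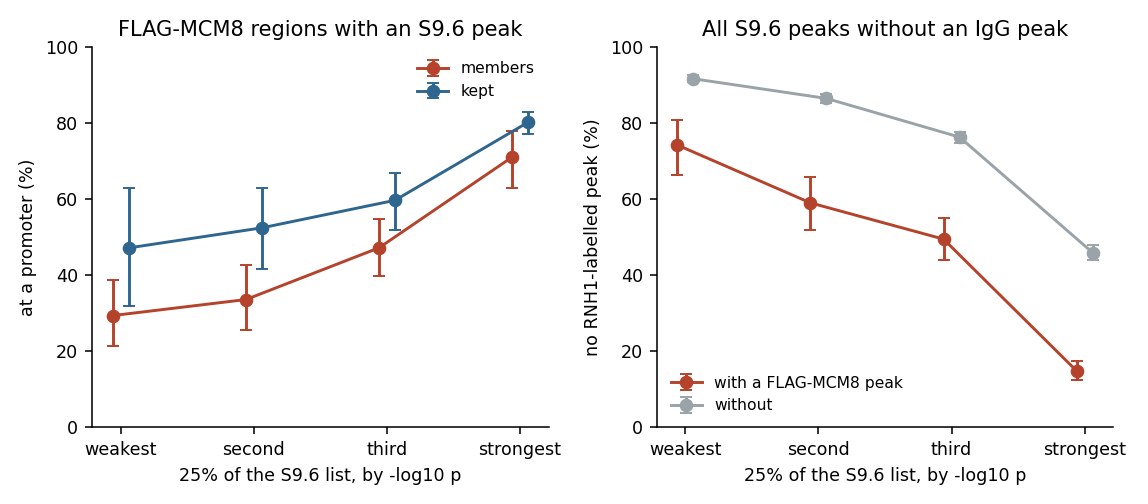
Shares with 95% Wilson intervals in each 25% of the S9.6 list by −log10 p (x axis). Left, the share at a promoter (y axis, %) in members rises from 29.4 to 71.1% and lies below kept regions in every bin. Right, the share of S9.6 peaks without an RNH1-labelled peak (y axis, %) falls from 74.3 to 14.8% under FLAG-MCM8 and from 91.7 to 46.0% elsewhere.

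Promoters were the most common site of the regions. Promoter regions had a GENCODE 44 TSS at most 1 kb from their midpoint. These were 241 regions, or 47.0% (42.7 to 51.3%), of which 208 had a protein-coding TSS. A further 133 regions lay in introns, 116 between genes, 10 in UTRs, 7 in coding exons and 6 in noncoding exons. Kept regions lay at promoters in 73.4%, a difference of −26.4 points (−31.5 to −21.2), and FLAG-MCM8 peaks with no S9.6, RNH1-labelled or IgG peak (FLAG-MCM8 only) in 14.6%. Reverse regions were at promoters in 42.1% (37.5 to 46.8%), which differed from the members by an amount whose interval included 0 (4.89 points, −1.48 to 11.2). Introns held 25.9% of members and 30.7% of reverse regions.

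The promoter share of members followed the strength of the S9.6 peak. It was 29.4%, 33.6%, 47.2% and 71.1% from the weakest to the strongest bin, and in kept regions 47.2%, 52.5%, 59.7% and 80.3%. The difference was −17.8 points (−35.5 to 0.124) in the weakest bin and −9.18 points (−17.8 to −1.53) in the strongest, so the gap over all regions was larger than in any single bin. Promoters with protein-coding TSSs on both strands were found at 27 of the 208 coding promoters of members and at 22.7% of those of kept regions, a difference of −9.73 points (−14.9 to −3.65).

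**Figure D3:**
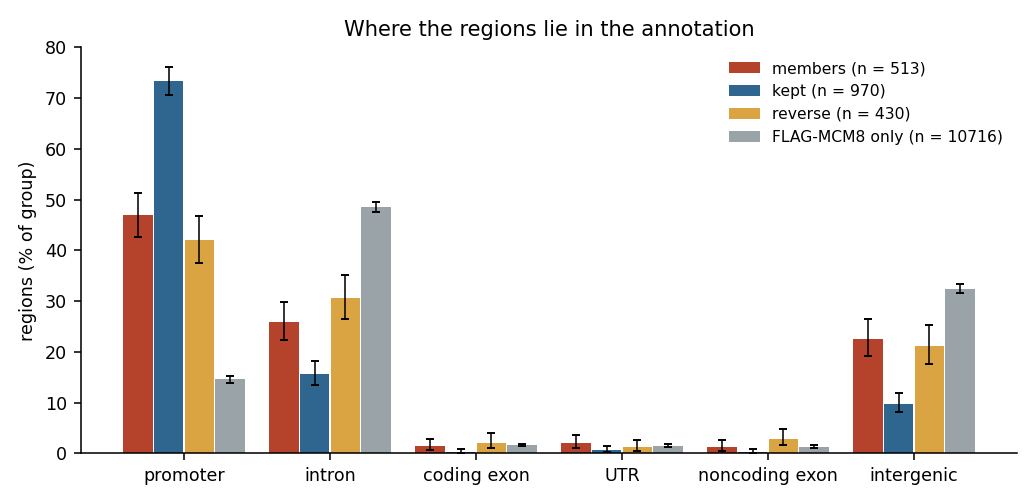
Share of regions (y axis, %) in each annotation class (x axis) with 95% Wilson intervals. Promoters hold 47.0% of members, 42.1% of reverse regions, 73.4% of kept regions and 14.6% of FLAG-MCM8 only regions.

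Members were GC-rich, though less so than kept regions. Within 150 bases on each side of the FLAG-MCM8 summit the GC content was 58.4% ± 9.73 (SD over 513 regions), beside 62.1% ± 9.47 in kept and 50.1% ± 9.49 in FLAG-MCM8 only regions. The difference from kept regions was −3.77 points (−4.80 to −2.74) over all regions but −1.31 points (−2.49 to −0.137) at promoters. By S9.6 strength it was −4.28 points (−7.26 to −1.30) in the weakest bin and −1.98 points (−3.75 to −0.216) in the strongest, and in the bin below the strongest, −1.60 points (−3.81 to 0.613), its interval included 0. Reverse regions had 57.2% ± 10.7, and the interval of that difference included 0 (1.15 points, −0.163 to 2.46). CpG dinucleotides reached 0.463 of the number expected from the bases in members, 0.634 in kept and 0.242 in FLAG-MCM8 only regions. At promoters 62.2% of members had a GC content of at least 50% and a CpG ratio of at least 0.6, as CpG islands do, beside 76.1% of kept regions (−13.9 points, −20.8 to −7.15).

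The GC box GGGCGG, which SP1 and KLF factors bind, was the most common of the motifs searched. On either strand it occurred in 58.1% (51.8 to 64.1%) of member promoters, 68.8% of kept promoters, 27.9% of FLAG-MCM8 only promoters and 52.8% of windows of the same length around all protein-coding TSSs. CCAAT, bound by NF-Y, occurred in 27.0%, 35.8%, 27.0% and 33.0% of the same windows. The members' share was lower than that of kept promoters for both motifs, with differences of −10.7 points for the GC box (−17.8 to −3.74) and −8.84 points for CCAAT (−15.2 to −1.99). Within the strongest bin of S9.6 peaks these differences were −5.85 points (−16.4 to 3.82) and −9.15 points (−18.1 to 1.31), and both intervals included 0. The TATA box TATAAA was rare, in 2.49% of member, 3.93% of kept and 7.30% of FLAG-MCM8 only promoters and 9.63% of all TSS windows. Members differed from kept promoters by −1.44 points (−3.60 to 1.63), an interval that included 0. Promoter windows were centred on the FLAG-MCM8 summit and those of all genes on the TSS. Runs of G that can fold into a quadruplex (4 runs of at least 3 G with 1 to 7 bases between) were found in 31.1% of member promoters, 32.3% of kept and 19.2% of FLAG-MCM8 only promoters. The share over all TSS windows was 29.4%, inside the members' interval of 25.6 to 37.2%.

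The 300 bases after the TSS held more G than C on the coding strand, a skew known to favour R-loops. The skew, (G − C)/(G + C), averaged 0.0754 ± 0.150 over 208 member promoters, 0.0696 ± 0.161 over 636 genes of kept regions and 0.0488 ± 0.149 over all 20033 protein-coding genes. All genes were taken at their first annotated TSS, which need not be the TSS nearest to a peak. Members exceeded all genes by 0.0266 (0.00609 to 0.0471) and did not differ from kept regions beyond the interval (0.00575, −0.0182 to 0.0297).

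Away from promoters some members lay on tandem repeats, here windows of 150 bases on each side of the summit in which at least 80% of bases equal the base 1 period away. There were 15 such regions among 272 (5.51%, 3.37 to 8.90%). Kept regions away from promoters had 21.3%, a difference of −15.8 points (−21.6 to −10.1), FLAG-MCM8 only regions 0.765% and reverse regions 7.63%. At promoters 0 of 241 members were of this kind, which allows a share of up to 1.24% when 3 counts are taken as the limit of a count of 0, a limit used below as well. The repeat unit of the 15 regions was 26 to 118 bp long, with a median of 42 bp. The 3 examples printed here are from introns, the first 2 with the most regular copies and the third in CCNY, which encodes cyclin Y. Capitals and lower case alternate with each copy of the unit.
Chromosome 12 repeat, chr12:129303295-129303495, plus strand: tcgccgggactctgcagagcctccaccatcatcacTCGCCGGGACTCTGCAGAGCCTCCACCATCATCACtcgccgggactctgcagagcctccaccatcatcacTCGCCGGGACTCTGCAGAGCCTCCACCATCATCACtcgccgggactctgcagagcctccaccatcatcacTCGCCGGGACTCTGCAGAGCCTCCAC
Chromosome 3 repeat, chr3:262155-262355, plus strand: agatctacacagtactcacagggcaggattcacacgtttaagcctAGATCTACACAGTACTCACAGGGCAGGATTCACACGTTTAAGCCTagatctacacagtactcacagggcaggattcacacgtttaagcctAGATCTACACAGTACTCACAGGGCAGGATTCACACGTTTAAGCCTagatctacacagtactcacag
Chromosome 10 repeat, chr10:35549488-35549688, plus strand: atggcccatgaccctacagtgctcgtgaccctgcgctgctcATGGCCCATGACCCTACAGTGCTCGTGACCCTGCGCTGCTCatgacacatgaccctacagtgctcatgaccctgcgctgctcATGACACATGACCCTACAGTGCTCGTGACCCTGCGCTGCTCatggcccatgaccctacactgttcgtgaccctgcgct
The chromosome 12 window, in an intron of TMEM132D, repeats a 35-bp unit without a single mismatch, and in the chromosome 3 window, in an intron of CHL1, a 45-bp unit matched in 99.6% of bases. The CCNY unit of 41 bp matched in 93.5%. The chromosome 3 region had 22 FLAG-MCM8 and 19 S9.6 fragments at its summits, and its nearest RNH1-labelled peak was 4606042 bp away. Reads from such repeats can be placed on more than 1 copy, so the position within the repeat is uncertain.

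At the 208 coding promoters the FLAG-MCM8 summit of members lay at a median of 7.5 bp downstream of the TSS (25th and 75th percentiles −190.5 and 150 bp). The S9.6 summit lay at a median of −69 bp, which is upstream. These promoters were chosen by a midpoint within 1 kb of a TSS, so a median close to the TSS is largely set by that choice. FLAG-MCM8 only regions had a median FLAG-MCM8 summit at 38.5 bp. Summits were upstream of the TSS in 48.6% (41.9 to 55.3%) for FLAG-MCM8 and 58.7% (51.9 to 65.1%) for S9.6. In kept regions the medians were −27 and −50 bp. FLAG-MCM8 summits lay within 150 bp of the TSS in 45.2% of members, 50.4% of kept and 24.9% of FLAG-MCM8 only regions. The summits of both antibodies were a median of 160 bp apart in members and 153 bp in kept regions, and 36.3% and 37.8% lay within 100 bp of each other.

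**Figure D4:**
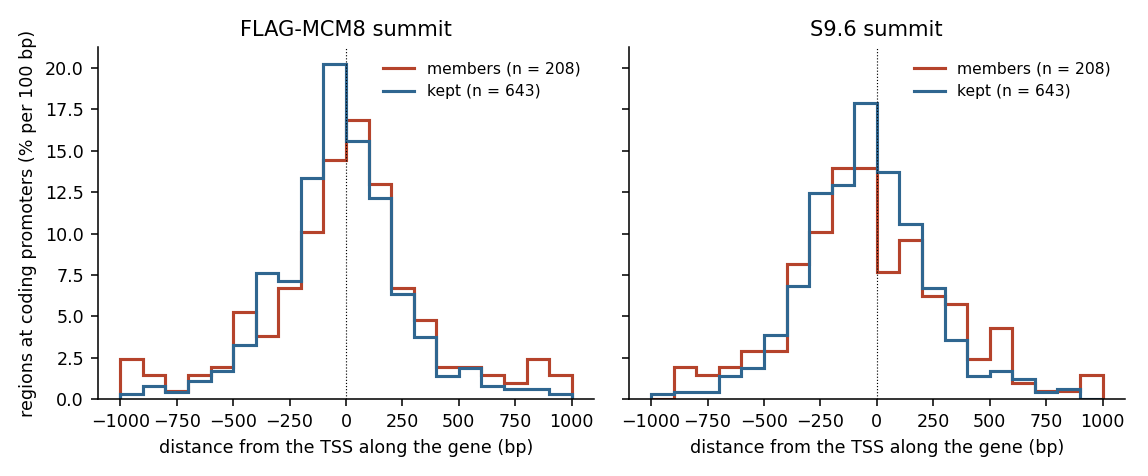
Distance of the FLAG-MCM8 summit (left) and of the S9.6 summit (right) from the TSS in bp (x axis, negative is upstream, 1000 bp shown on each side) at coding promoters, as the share of regions per 100 bp (y axis, %). The regions were chosen by a midpoint within 1 kb of the TSS. Member medians are 7.5 bp for FLAG-MCM8 and −69 bp for S9.6.

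The promoter members with the highest FLAG-MCM8 −log10 q were genes of varied function. ARRB2, which encodes β-arrestin 2, a regulator of G protein-coupled receptors, had 31 FLAG-MCM8 and 20 S9.6 fragments at chr17:4710050-4710587. MTHFD2, a mitochondrial folate enzyme, had 24 and 26 at chr2:74198413-74198953, and the peaks shared 541 bp. The ARRB2 peaks shared only 76 bp. RPAP3, a co-chaperone in the assembly of RNA polymerase II, had 25 and 23. OPA3, a mitochondrial protein, had 22 and 39, SNX12, a sorting nexin, 22 and 30, and PER1, a core gene of the circadian clock, 27 and 34. At these 4 genes the nearest RNH1-labelled peak was between 16320 and 87350 bp away. DNM2 (dynamin 2, which cuts off endocytic vesicles) had 22 and 28, SPTY2D1 (a histone chaperone) 20 and 27, and RRN3 (an initiation factor of RNA polymerase I) 22 and 30. RRN3 lay 92 bp from an RNH1-labelled peak, so its place in the set rested on peak edges.

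Ranked by S9.6 instead, the first member was FAM162A, a mitochondrial protein induced by hypoxia, with 44 S9.6 and 18 FLAG-MCM8 fragments at chr3:122384126-122384612. ELL, an elongation factor of RNA polymerase II, had 53 and 17 at chr19:18522209-18522550, the highest S9.6 pileup of the set. FAF2, which acts in the disposal of misfolded proteins, had 44 and 16. The nearest RNH1-labelled peak was at least 9359 bp from these 3 regions. TFAP2A, a transcription factor of the neural crest, and XPR1, a phosphate exporter, had 44 and 41 S9.6 fragments but lay 171 and 188 bp from an RNH1-labelled peak.

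Away from promoters the highest FLAG-MCM8 −log10 q, 18.7, was in an intron of PIEZO2, a mechanosensitive channel gene (chr18:11014462-11014751), with 27 FLAG-MCM8 and 14 S9.6 fragments. It was followed by an intron of LAMC1, a laminin chain (23 and 15), an intergenic region upstream of FIBIN (22 and 16), an intron of RFC3, a clamp loader subunit (22 and 14), and the CHL1 repeat. The S9.6 heights of these 5 regions, 14 to 19 fragments, were all below the member median of 20.

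Over genes, 243 of 20007 protein-coding genes (1.21%) had a member within 1 kb of a TSS, and 182 had a reverse region. An RNH1-labelled peak was present at some TSS of 77 of the 243 genes, and 8 also had a kept region. Among factors that prevent or resolve R-loops, 2 of 42 genes had a member: DDX5, an RNA helicase that unwinds hybrids, and BLM, a helicase that dissolves recombination intermediates. Reverse regions marked 2 other genes of that list, SRSF1 and DDX21. The BLM region (chr15:90717420-90717697) had 19 FLAG-MCM8 and 18 S9.6 fragments and the nearest RNH1-labelled peak 57160 bp away. Homologous recombination and Fanconi genes held 2 of 50, BLM and MRE11, a nuclease that trims broken ends, which had 34 S9.6 fragments and an RNH1-labelled peak 108 bp away. No gene of that list had a reverse region.

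Of 80 genes of mitotic cell cycle transitions, 4 had a member. These were CDC25B, a phosphatase that activates cyclin-dependent kinases (35 S9.6 fragments), CDKN2D, an inhibitor of CDK4 and CDK6 (24), LIN9, a subunit of the DREAM complex (22), and UBE2S, a ubiquitin-conjugating enzyme of the anaphase-promoting complex (20). Reverse regions marked 1 gene of this list, MDM2. An S9.6 peak was present at a TSS of 44 of the 80 genes, beside 6022 of 20007 over all protein-coding genes, and 9 of the 80 had a kept region. RNA polymerase II, general factors and Mediator had 4 of 107 and no reverse region: ELL, CCNT2 (a cyclin of P-TEFb, 31 S9.6 fragments), TAF12 (a TFIID subunit, 27) and MED24 (a Mediator subunit, 29). The CCNT2 and LIN9 regions lay 12 and 93 bp from an RNH1-labelled peak. Of these 107 genes, 48 had an S9.6 peak at a TSS and 11 had a kept region.

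Genes of protein synthesis and RNA processing had few members each. Cytosolic ribosomal proteins had 2 of 84 (RPL7 and RPS10), mitochondrial ribosomal proteins 2 of 82 (MRPL54 and MRPS30), translation initiation factors 2 of 56 (EIF2AK1 and EIF4A1), and splicing factors and hnRNPs 2 of 131 (HNRNPH3 and SRSF3). HNRNPH3 had the tallest S9.6 peak of these, with 41 fragments, and 75083 bp to the nearest RNH1-labelled peak. Reverse regions marked 1, 2, 1 and 2 genes of these lists in the same order. DEAD and DEAH box helicases held 2 of 57, DDX5 and EIF4A1, beside 4 with a reverse region. Zinc finger genes held 6 of 508, of which ZNF460, ZNF133, ZNF414 and ZNF800 had 18 to 29 S9.6 fragments. Reverse regions marked 4 zinc finger genes. F-box proteins and ubiquitin-specific proteases had 3 of 119 (FBXO4, USP4 and USP11) and no reverse region. An RNH1-labelled peak lay 9 bp from the EIF4A1 region, 115 bp from USP4, 116 bp from ZNF800 and 210 bp from RPL7. The place of these regions in the set rested on peak edges, and ZNF414 also had a kept region.

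Single genes represented DNA polymerases and fork factors (RRM2, a subunit of ribonucleotide reductase, 1 of 33), nuclear respiratory chain genes (NDUFB3, 1 of 105), replication-dependent histones (H4C14, 1 of 69) and chromatin regulators (HDAC3, a histone deacetylase, 1 of 111). MCM helicases with their loading factors and MCM8 partners had 0 of 33, which allows up to 9.09%, aminoacyl-tRNA synthetases 0 of 37 (up to 8.11%), proteasome subunits 0 of 48 (up to 6.25%) and snoRNA host genes 0 of 35 (up to 8.57%). Reverse regions marked 1 gene each of the fork factor, respiratory chain, synthetase, proteasome and snoRNA host lists. They marked 0 genes of the histone, chromatin and MCM lists. No list was tested, and with 0 to 6 genes each these counts describe the set and rank no pathway.

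Of the loci named in the study, FBXO4 and DDX5 were members. FBXO4, an F-box protein that marks cyclin D1 for destruction, had 12 FLAG-MCM8 fragments (fold 4.29, chr5:41925123-41925532) and 19 S9.6 fragments (fold 6.10, chr5:41925026-41925551), with the nearest RNH1-labelled peak 20606 bp away. At DDX5 the FLAG-MCM8 peak (chr17:64507012-64507369, 18 fragments) lay within 1 kb of a TSS of DDX5 and of CEP95 on the other strand, with its summit 110 bp downstream of that of CEP95, over an S9.6 peak of 33 fragments. A taller S9.6 peak of 56 fragments, chr17:64506262-64506809, overlapped an RNH1-labelled peak of 50 fragments, so this promoter kept a called hybrid 249 bp from the member. The IgG list held 2 peaks on coding exons of DDX5, the nearer 3441 bp from the member. CDK4, GMNN and USP37 were kept regions, with 94, 36 and 28 fragments in the RNH1-labelled list and 81, 26 and 41 in S9.6. MCM8 and DHX9 had no FLAG-MCM8 peak at a TSS.

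The MEF lists were not used to choose the regions. Genes were matched to mouse by symbol, which left 206 of 235 genes with a member and no kept region at a coding TSS. The same-named mouse gene had an S9.6 peak within 1 kb of a TSS for 23.8% (18.5 to 30.0%) of these in wild-type MEFs, 32.5% in Mcm8 knockout, 24.8% with control shRNA and 51.0% with Ddx5 knockdown, beside 1.46% in the library without antibody. All protein-coding genes had 14.6%, 20.3%, 18.6%, 29.2% and 1.48% in the same order, so the order of the MEF libraries was that of all genes. Member genes were above all genes in each S9.6 library, by between 6.13 points (0.701 to 12.5) with control shRNA and 21.8 points (14.9 to 28.6) with Ddx5 knockdown. Genes of FLAG-MCM8 only regions had 17.7%, 22.9%, 22.05% and 37.3% in the 4 S9.6 libraries. Against these the members' difference was 6.06 points (0.178 to 12.7) in wild-type MEFs, where the interval included 0 with peaks within 500 bp or within 3 kb, and 2.71 points (−3.34 to 9.52) with control shRNA. It was 9.63 points (2.997 to 16.8) in the knockout and 13.6 points (6.16 to 21.02) with Ddx5 knockdown.

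Genes of kept regions carried mouse peaks more often than genes of members, with differences (members less kept) of −19.3 to −11.6 points across the 4 S9.6 lists and no interval that included 0. In wild-type MEFs the values were 43.1% and 23.8%, a difference of −19.3 points (−25.8 to −12.1). Within the strongest bin of HEK293 S9.6 peaks the difference in wild-type MEFs was −21.8 points (−30.6 to −10.9), and in the weakest bin, with 24 member genes, 1.92 points (−28.2 to 26.8). In the knockout, control shRNA and Ddx5 knockdown lists the interval included 0 in every bin but the strongest. With Ddx5 knockdown the difference was 12.2 points (−19.3 to 40.9) in the weakest bin and −16.4 points (−27.5 to −5.24) in the strongest. No S9.6 peak in any of the 4 lists was found for 37.9% of member genes and 22.2% of kept genes. Genes of reverse regions, with 31.9% in wild-type and 33.8% in none, gave differences from members whose intervals included 0 in each of the 4 lists. A peak in the knockout but not the wild-type list was found at 34 member genes and the opposite at 16, beside 1851 and 944 of 15742 over all genes.

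**Figure D5:**
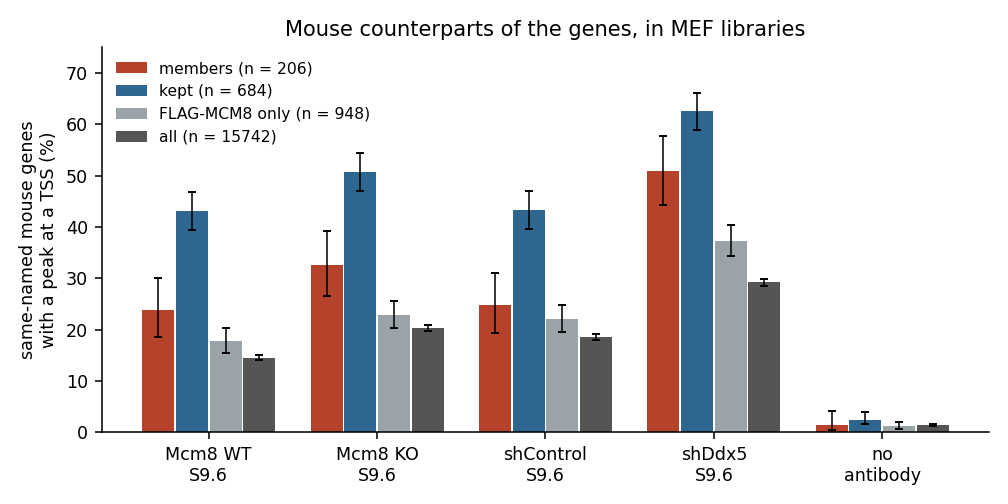
Share of same-named mouse genes with a peak within 1 kb of a TSS (y axis, %) in each MEF library (x axis), with 95% Wilson intervals. In all 4 S9.6 libraries member genes (23.8 to 51.0%) lie below kept genes (43.1 to 62.6%) and above genes of FLAG-MCM8 only regions (17.7 to 37.3%) and all protein-coding genes (14.6 to 29.2%), and the library without antibody is near 0 for every group.

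Member genes with a peak in all 4 MEF S9.6 lists were 18 of 206 (8.74%, 5.60 to 13.4%), beside 24.7% of kept genes and 5.39% of all. Of these, 17 had none in the library without antibody. They included CDKN2D, ELL, HDAC3, HNRNPH3, MTHFD2 and PER1, named above, and ENO1, a glycolytic enolase, and DDIT3, a stress-induced transcription factor, named here after their values were seen.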

How the data were processed

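CUT&Tag peak lists of 4 HEK293 and 5 MEF libraries were analysed, 1 library per group by its label. The authors aligned reads to hg38 or mm10 with bowtie2 2.2.4 and called peaks with MACS2, given as 2.2.7.1 in the methods and 2.1.2 in the submitters' processing notes, which also name Trimmomatic. The control used as input for HEK293 and the handling of duplicate reads are not given in the sources used here. Each deposited peak has a fold (a ratio) at its summit over the local background, and the −log10 of its p and of its q, as the authors deposited them. These values depend on depth, and fold, p and q were used within a list. The fragment counts solved from them, described below, are set side by side across lists without scaling for depth. The deposited summit offset gave summit positions.

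From the fold and the p the whole number of fragments at a summit was solved for 99.96 to 99.98% of the HEK293 peaks (a −log10 p of at least 250 was not solved), and the lowest background over the shortest peak length gave relative depth. Mitochondrial peaks (6 to 9 per HEK293 list) were left out. Overlaps needed 1 bp (bedtools 2.31.1), promoters were midpoints within 1 kb of a GENCODE 44 or M21 TSS, and genes were counted within that distance. A region was named after the nearest protein-coding TSS within 1 kb, otherwise after the nearest TSS or the gene that holds it. Bases came from the hg38 reference. Shares have 95% Wilson intervals, differences of shares Newcombe intervals and differences of means normal intervals. Overlap counting, pileups and repeat scoring were tested on simulated data. Tools were pysam 0.24.0, matplotlib 3.10.9, scipy 1.17.1, pandas 2.3.3 and numpy 2.4.6 under Python 3.11.15.

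The named regions were 7 loci of the study, the 10 promoter and 5 other members with the highest FLAG-MCM8 −log10 q, the 5 with the highest S9.6 −log10 q, up to 4 genes per list by S9.6 −log10 q (all where a list had few), and the regions at the edges of the rule. One of these regions is not reported here. The members, gene lists and motifs were chosen with earlier results of these data known. The reverse regions, tandem repeats, quadruplex runs and GC skew were added after seeing the data.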

Additional observations from a re-analysis of the deposited data

How the results depend on the processing

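No paired analysis was possible because each group held 1 library. Depth is a limit, since 37.6% of members rested on an S9.6 summit of at most 18 fragments. Of 60 alternative settings, 37 left the value within 1.5 times (counts) or within its interval and 23 moved it. Only a difference could turn its direction, since counts and shares are never below 0, and no difference did. The order of members and reverse regions was not among these settings. It turned when the same number of strongest peaks was used (439 members and 454 reverse regions). The number of members was 333 with a fold of at least 4, 6 with a q of 1e-10 or lower and, in a setting added after seeing the data, 175 with an S9.6 pileup of at least 24, and between 413 and 570 under the other settings. The promoter share was 39.8% within 500 bp, 56.7% within 3 kb, 40.5% with protein-coding TSSs only and 60% with the pileup of at least 24. The difference in promoter share from kept regions was −19.4 points with 50% of both peaks in common and −18.6 points with the pileup of at least 24, and the GC difference −2.12 points with that pileup, −1.31 points at promoters and −1.66 points away from them, where its interval included 0. The difference between S9.6 peaks with and without FLAG-MCM8 was −43.3 points over all and −17.5, −27.5, −26.9 and −31.1 points from the weakest to the strongest 25%. It is only a description, since the rule used this contrast. With MEF peaks of a q of 0.05 or lower the member genes had 14.6% in wild-type, 20.4% in knockout, 15.05% with control shRNA, 41.3% with Ddx5 knockdown and 0 of 206 without antibody. The cause of these moves was not tested. The tandem repeat share was 10.7% at a threshold of 70% and 1.84% at 90%.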

Other observations

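Of the 241 promoter members, 33 had no protein-coding TSS within 1 kb: 24 were at lncRNA starts, 3 at starts of variant U1 small nuclear RNA genes (RNVU1-2A, RNVU1-31 and RNVU1-7), 4 at pseudogenes, 1 at a microRNA (MIR6727) and 1 at RNA5SP532, annotated as rRNA. The U1 variants have near-identical copies on chromosome 1, so reads there may come from another copy. Their S9.6 summits held 22, 25 and 30 fragments. The lncRNA starts included HM13-AS1 with 44 S9.6 fragments and MIR9-1HG with 31, which lay 19 and 209 bp from an RNH1-labelled peak. These genes were named after their values were seen.

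By chromosome, the share of FLAG-MCM8 peaks with S9.6 and no IgG peak that were members was 34.6% over all. It ran from 16.7% (3 of 18, 5.84 to 39.2%, chromosome 21) to 52.1% (25 of 48, 38.3 to 65.5%, chromosome 3) among chromosomes with a member. Chromosome 5 had 47.7% (31 of 65, 36.0 to 59.6%) and chromosome 19 had 24.6% (30 of 122, 17.8 to 32.9%). These are the extremes of small counts, and differences between chromosomes were not tested.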
